A study of Drosophila melanogaster with 2 samples.

Results

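The 314 regions described here are promoter-proximal binding peaks of a fusion of Pox neuro (Poxn) with eGFP in Drosophila melanogaster embryos. A peak was a member when its summit, the base of highest signal, lay 501 to 2000 bp from the nearest annotated transcription start site (TSS) of any gene, on either side. They made up 21.7% of the 1449 peaks on the chromosome arms in the thresholded list that the authors made from both replicates, which held 1488 peaks in all. The other peaks on the arms were 821 promoter peaks, with a TSS within 500 bp, and 314 distal peaks, with none within 2000 bp. The background throughout was the authors' ranked list of candidates from which the thresholded list was drawn. It held 37041 candidates at the same distance from a TSS, so 0.848% of the candidates at this distance were members. The thresholded list rests on the irreproducible discovery rate (IDR), a measure of how well the rank of a candidate repeats between rankings. Members did not all rank alike in both replicates. That at lncRNA:CR44331 overlapped the candidate at rank 627 in replicate 1 and that at rank 22702 in replicate 2.

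The study was a chromatin immunoprecipitation and sequencing (ChIP-seq) experiment on whole embryos aged 0 to 24 h of the strain Poxn-GFP, sonicated to 200 to 800 bp. There were 2 biological replicates and 1 group, and every embryo sample carried the transgenic Poxn-eGFP fusion. The sample descriptions name an antibody against GFP, whereas the antibody field of the labels reads Poxn. A control experiment that the labels refer to was not analysed here, and the labels and files state no read depth. In whole embryos, strong binding in few cells and weak binding in many cannot be told apart. The replicate lists alone held 189 peaks at this distance in replicate 1, 0.688% of its 27488 candidates, and 179 in replicate 2, 0.661% of its 27062 candidates.

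Poxn is a paired-domain transcription factor of the Pax family, known for giving external sense organs a chemosensory identity and for roles in the brain, the appendages and the male genitalia. Regulatory elements of Drosophila genes often lie outside the core promoter, in the first introns or in the sequence just upstream of a gene. Enhancers and silencers there are bound by transcription factors and act on promoters nearby or farther away.

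The sequences below are from 7 of the strong members, on the reference strand of dm6, 125 bp to either side of the summit and taken from the matching RefSeq assembly. Capitals mark the word ACAGTG or its reverse complement CACTGT, which the shared-word counts given further on turn on. All came from windows that touch no untranslated region, on the arms that sequence was taken from. Among these, CG11050 and CG9663 were the strongest without the word. The strongest with it, other than in facing copies on both sides, were Trl, which encodes the GAGA factor, and norpA, which encodes the phospholipase C of phototransduction. The copy at Trl lay 118 bp from the summit, outside the 201 bp windows used below. In the counts over those windows the Trl member is one without the word. The other 3 were the strongest with ACAGTG to the left and CACTGT to the right of the summit. They lay near lncRNA:CR45643, near NFAT, a gene of the NFAT transcription factor family and near for, which encodes the cGMP-dependent protein kinase foraging. The window at lncRNA:CR45643 was intergenic and the others had their summit in an intron.
CG11050, chr2L:6612574-6612824: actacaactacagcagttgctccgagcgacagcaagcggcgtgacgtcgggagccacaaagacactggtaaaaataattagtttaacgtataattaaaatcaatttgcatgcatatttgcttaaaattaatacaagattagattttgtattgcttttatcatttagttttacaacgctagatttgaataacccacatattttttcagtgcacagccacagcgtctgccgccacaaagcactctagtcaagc
CG9663, chr2L:3302073-3302323: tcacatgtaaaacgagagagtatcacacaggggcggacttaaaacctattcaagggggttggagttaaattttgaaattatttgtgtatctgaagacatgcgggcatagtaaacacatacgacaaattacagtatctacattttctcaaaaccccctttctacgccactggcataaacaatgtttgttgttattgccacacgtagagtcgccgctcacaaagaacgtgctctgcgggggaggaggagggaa
Trl, chr3L:14759395-14759645: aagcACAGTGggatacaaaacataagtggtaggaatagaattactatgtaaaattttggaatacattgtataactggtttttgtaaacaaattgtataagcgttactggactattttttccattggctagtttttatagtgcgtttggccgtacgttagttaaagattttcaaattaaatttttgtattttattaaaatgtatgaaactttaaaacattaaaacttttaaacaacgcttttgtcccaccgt
norpA, chrX:4324884-4325134: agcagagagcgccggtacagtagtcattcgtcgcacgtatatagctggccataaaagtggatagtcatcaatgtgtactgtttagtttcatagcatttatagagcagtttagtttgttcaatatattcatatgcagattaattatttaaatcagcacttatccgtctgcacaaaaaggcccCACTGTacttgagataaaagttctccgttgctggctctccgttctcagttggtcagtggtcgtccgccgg
lncRNA:CR45643, chr3R:16222392-16222642: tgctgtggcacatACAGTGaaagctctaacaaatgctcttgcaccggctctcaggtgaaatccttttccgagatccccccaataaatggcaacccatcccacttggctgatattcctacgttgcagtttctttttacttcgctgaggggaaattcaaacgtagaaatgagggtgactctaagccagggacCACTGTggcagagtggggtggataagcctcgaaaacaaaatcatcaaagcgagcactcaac
NFAT, chrX:13640397-13640647: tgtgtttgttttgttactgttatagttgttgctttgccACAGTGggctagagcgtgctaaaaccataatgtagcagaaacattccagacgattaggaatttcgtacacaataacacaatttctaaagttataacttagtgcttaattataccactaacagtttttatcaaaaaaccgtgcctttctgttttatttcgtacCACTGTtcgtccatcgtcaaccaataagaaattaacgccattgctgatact
for, chr2L:3655707-3655957: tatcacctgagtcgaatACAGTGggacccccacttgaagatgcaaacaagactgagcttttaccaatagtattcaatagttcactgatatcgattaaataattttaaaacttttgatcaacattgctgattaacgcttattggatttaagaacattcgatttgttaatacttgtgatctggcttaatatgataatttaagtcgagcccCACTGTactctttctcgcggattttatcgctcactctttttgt

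The windows at CG11050, the strongest member, and at CG9663 held no copy of the word. In the last 3 windows the word was present on both sides of the summit, with ACAGTG on the left and CACTGT on the right, so that both copies read towards the summit. The GC content of the central 201 bp was 34.8% at CG11050, 41.3% at CG9663, 25.4% at Trl and 37.3% at norpA. It was 36.3% at NFAT, 33.3% at for and 48.8% at lncRNA:CR45643. Of these 7 windows, those at CG9663 and lncRNA:CR45643 were above 40%.

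Among candidates, the share that reached the thresholded list was 5.50% within 100 bp of a TSS and higher, 7.38%, in the next 100 bp, and fell from there, steeply up to 500 bp and slowly beyond. Up to 500 bp from a TSS, 4.12% of 19911 candidates were in the list, and beyond 2000 bp 0.364% of 86318. Within the members' band the share was 1.23% at 501 to 750 bp (100 members, Wilson 95% interval 1.01 to 1.497). It was 0.861% at 751 to 1000 bp (62 members, interval 0.673 to 1.10). The intervals of these shares cover counting error only. It was 0.740% at 1001 to 1500 bp (89 members, interval 0.601 to 0.909) and 0.649% at 1501 to 2000 bp (63 members, interval 0.508 to 0.830). Neighbouring parts of the band had overlapping intervals, while the interval of the nearest part lay above those of the 2 farthest parts. The median distance was 962.5 bp in members and 1125 bp in candidates at this distance.

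**Figure D1:**
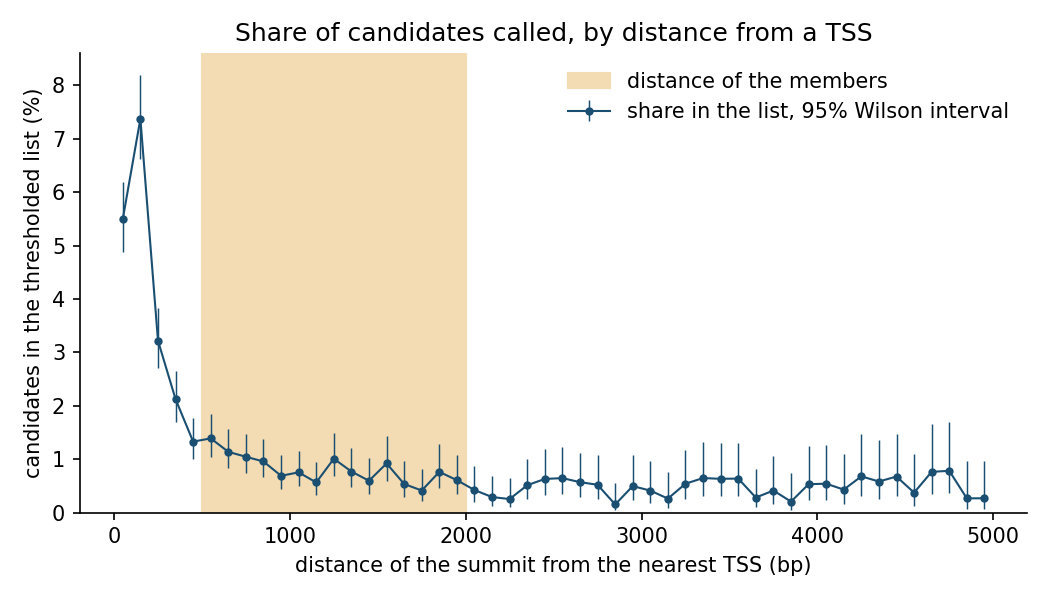
Share of ranked candidates that were in the thresholded list (vertical axis, percent) in 100 bp bins of the distance between summit and nearest TSS (horizontal axis, bp); points are shares, bars are Wilson 95% intervals and the shaded band is where the members lie. The share was 7.38% at 101 to 200 bp, 1.39% at 501 to 600 bp and 0.607% in the last bin up to 2000 bp.

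The limits of the band cut through a continuous range of distances. The members nearest to the inner limit were at CG5065, 502 bp from the TSS with a signal of 63.7, and at CG3348, 503 bp away with a signal of 99.0. On the other side of that limit, promoter peaks lay 498 bp from lncRNA:CR46113 (signal 47.8) and 496 bp from ph-p, a Polycomb group gene (signal 612). At the outer limit, members lay 1998 bp from CG12290 (signal 89.4) and 1988 bp from lmd (signal 99.4). The nearest distal peaks were 2024 bp from CG5968 (signal 73.3) and 2053 bp from be (signal 60.8). No member lay within 500 bp of a TSS in the RefSeq annotation.

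Most members were intronic. Of the 314 summits, 218 (69.4%, Wilson 95% interval 64.1 to 74.3) lay in an intron, against 30.9% of candidates at this distance, and 1.90% of the 11455 intronic candidates were members. The intron share was 68.8% in distal peaks, about that of members, and 28.0% in promoter peaks. It was 49.0% in the 8000 candidates of like GC. These lay outside the list, with a GC content between the members' quartiles, and were chosen after the values were seen. Coding exons held 10 members (3.18%, interval 1.74 to 5.76) against 38.1% of candidates, and 0.0709% of 14100 candidates in coding exons were members. Between genes there were 67 members (21.3%, interval 17.2 to 26.2), close to the 21.8% of candidates there. Noncoding exons held 11 members, untranslated exon sequence at the start of transcripts 6 and at their end 2. The median GC content was 35.1% in intronic members and 43.3% in intronic candidates. The 10 members in coding exons had a median of 59.5%, against 54.2% in candidates of that class.

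**Figure D2:**
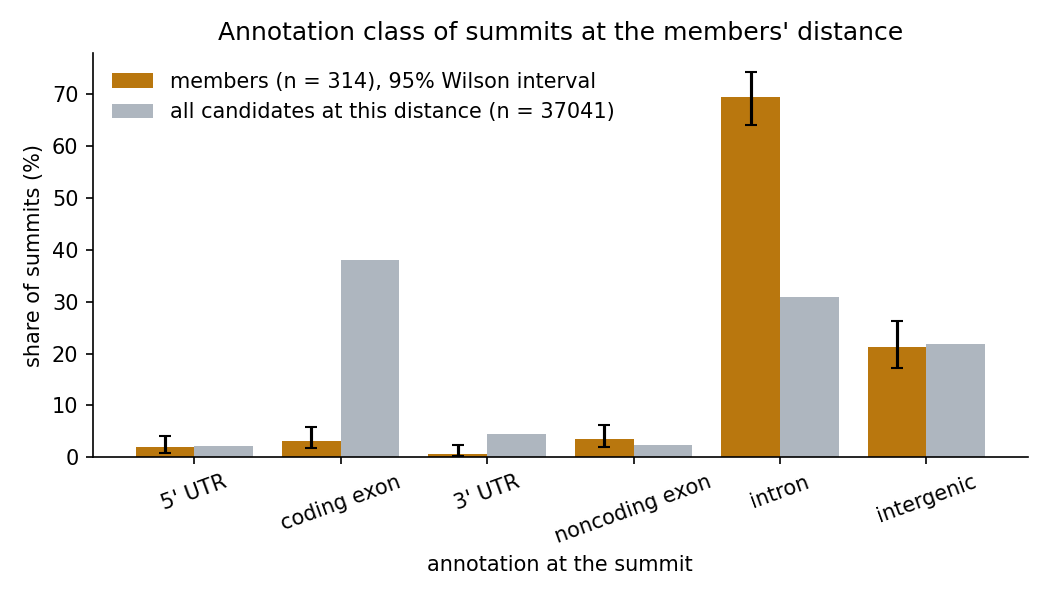
Share of summits (vertical axis, percent) in each annotation class (horizontal axis) for members, with Wilson 95% intervals, and for all candidates 501 to 2000 bp from a TSS. Members were at 69.4% in introns and 3.18% in coding exons, where candidates were at 30.9% and 38.1%.

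In 184 of the 218 intronic members the host gene was also the gene with the nearest TSS, and in 34 the intron belonged to another gene. The member nearest to mlt, for instance, lay in an intron of KCNQ, which encodes a voltage-gated potassium channel. In 116 the summit was in the first intron of a transcript that began at the nearest TSS. Of the intronic members, 135 lay downstream of that TSS and 83 upstream, and 58 of the 83 were in an intron of the same gene, past the start of a longer transcript. A summit in front of one TSS was therefore often inside another transcript of the gene.

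Along the direction of the nearest gene, 171 members (54.5%) lay downstream of the TSS, against 61.8% of candidates at this distance. In the candidates of like GC the share was 54.7%, about that of members. The side varied with distance. Downstream summits were 41 of 100 members (41.0%) at 501 to 750 bp, 31 of 62 at 751 to 1000 bp, 62 of 89 (69.7%) at 1001 to 1500 bp and 37 of 63 (58.7%) at 1501 to 2000 bp. In the same order the intronic summits numbered 70 of 100, 42 of 62, 62 of 89 and 44 of 63. The intron share of members thus changed little over the band while the side did. Side and intron share of candidates were not counted by part of the band. Whether the side of candidates changed in the same way is therefore not known.

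By chromosome, X held 78 members, 24.8% of them, against 16.1% of candidates at this distance, and 1.31% of the X candidates were members (Wilson 95% interval 1.05 to 1.63). On 2L, 2R, 3L and 3R the share of candidates that were members was between 0.691% and 0.873%, with intervals that reached no higher than 1.11%. The small chromosome 4 held 1 member and Y none of 45 candidates. The 314 members had 289 nearest genes, and 23 of these genes were nearest to 2 or 3 members. The nearest gene was protein-coding for 272 members (86.6%, against 82.8% of candidates), a noncoding RNA gene for 39 and a tRNA gene for 3. A transposable element covered 1 member summit.

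Other peaks of the list were sometimes close. Another peak lay within 1000 bp of 48 members (15.3%), compared with 8.40% of promoter peaks and 17.5% of distal peaks, and within 5000 bp of 113 members (36.0%). The median distance to the next peak was 11685 bp. At 37 members (11.8%) the nearest TSS had a promoter peak of its own, and at the other members it had none. Among the named members of the 25 strongest this was the case at CG42327, at LPCAT, which encodes a lysophosphatidylcholine acyltransferase, and at lncRNA:CR44619. Of the weaker members named in the text, those at lncRNA:CR44331, HmgD and bbx and the weaker Trl member were also among the 37.

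Signal values are the authors' enrichment values and rank peaks within a list. Since that ranking decided which candidates entered the list, they describe the members and test nothing. Members had a median signal of 80.2, with quartiles of 62.8 and 112.4 and values from 2.03 to 918, while candidates at this distance had a median of 17.3. The median was 89.5 in promoter peaks and 70.3 in distal peaks. Of the 162 candidates in the band with a signal at or above the list's median of 81.2, 153 (94.4%) were members. The other members included 6 with a signal under 10, and each of these lay 201 to 239 bp from another peak of the list. In all, 14 members shared a replicate candidate with another member, so that a replicate value there is not that of 1 region alone.

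The strongest member lay in an intron of CG11050, 1012 bp downstream of a TSS, with a signal of 918 in the pair's list, 396 in replicate 1 and 512 in replicate 2. Next was an intronic summit 560 bp upstream of a TSS of HmgZ, an HMG-box chromosomal protein gene, with a signal of 761 (324 in replicate 1 and 428 in replicate 2). The third lay in the first intron of Adf1, which encodes a sequence-specific transcription factor, 784 bp downstream of the TSS, with a signal of 724 (294 and 441). In these members replicate 2 had the higher value, on its own scale. The member in Trl, 1529 bp downstream of a TSS, had a signal of 612 (295 and 319). That in CG9663 had 555 (239 and 307) and that in CG32772 had 513 (241 and 266). The member in the first intron of norpA, 1400 bp downstream of the TSS, had 451 (210 and 246). All 7 lay in introns of the nearest gene.

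The next 2 were intronic too, at CG3726 with 430 (161 and 267) and at CG9837 with 416 (223 and 197). At rank 10 stood a summit in the exon of lncRNA:CR46035, inside osa, which encodes a subunit of the Brahma chromatin remodelling complex, with 360 (186 and 167). The member in the first intron of Csk, the C-terminal Src kinase gene, had 293 (135 and 153). At lncRNA:CR46035 and Csk the order of the replicates was opposite. The intergenic member near lncRNA:CR45643 had 284 (123 and 161), that upstream of a TSS of chif, whose product resembles the replication regulator Dbf4, had 278 (141 and 138), and that nearest to mlt had 262 (124 and 136).

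The other 11 of the 25 strongest members had signals of 207 to 260, and among their nearest genes were CG42327, lncRNA:CR43287, NFAT, Mekk1, for, stck, sp3, CG4496, LPCAT and lncRNA:CR44619. Mekk1 encodes a MAP kinase kinase kinase and stck the PINCH adaptor protein of integrin adhesions. The member nearest to lncRNA:CR43287 lay in an intron of CHES-1-like, a forkhead transcription factor gene. All 25 overlapped a peak in the thresholded list of each replicate, and 20 of them were intronic. NFAT was one of the genes nearest to 3 members, and Tlk, which encodes the Tousled-like kinase and was named after its values were seen, was the other.

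Over all members the replicates ranked the regions alike only in part. In the thresholded lists of the single replicates, 119 members (37.9%, Wilson 95% interval 32.7 to 43.4) overlapped a peak of both, 47 a peak of replicate 1 alone, 57 a peak of replicate 2 alone and 91 (29.0%) a peak of neither. Both lists held 45.8% of promoter peaks (interval 42.4 to 49.2) and 25.2% of distal peaks (interval 20.7 to 30.2). The share of members therefore lay between those of the other classes, and its interval overlapped that of promoter peaks and not that of distal peaks. The authors' conservative list held 259 members (82.5%). Members in both replicate lists had a median signal of 133 and those in neither a median of 59.1. All 314 overlapped a ranked candidate of replicate 1 and 309 one of replicate 2. Over these 309 the Spearman correlation of the 2 signals was 0.61 and the Pearson correlation of their log2 values 0.74, which describes regions that were selected from the same 2 libraries. Replicate 2 had the higher value in 176 and replicate 1 in 133.

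**Figure D3:**
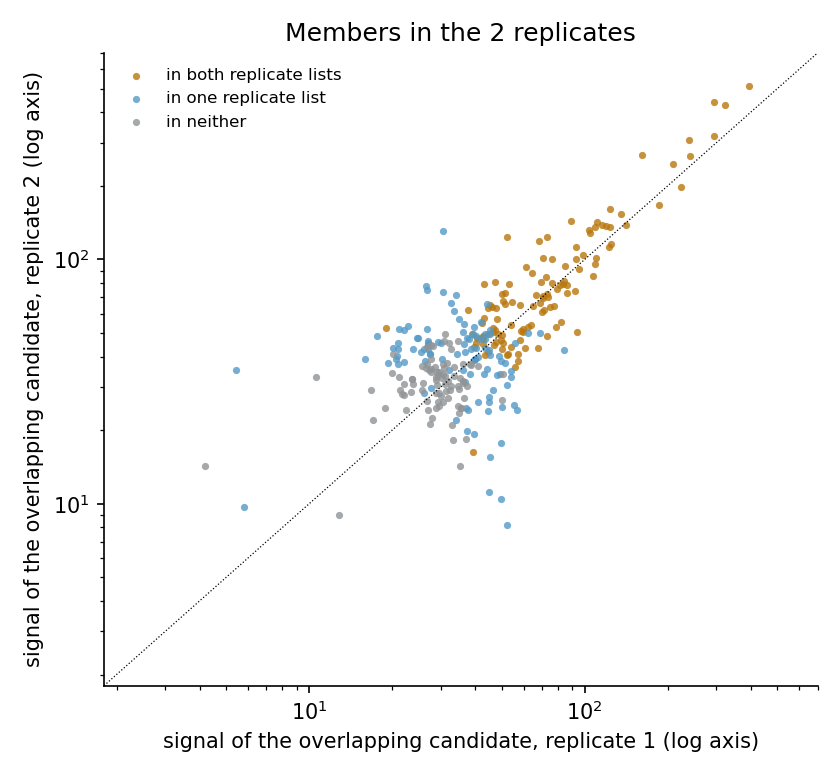
Signal of the overlapping candidate in replicate 1 (horizontal, log axis) and replicate 2 (vertical, log axis) for the 309 members with a value in both, coloured by the replicate lists that hold them; the dotted line marks equal values. Members in both replicate lists extend to the upper right, up to 396 and 512 at CG11050, and members in neither cluster at low values.

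The members were poor in GC at the summit. The median GC content of the 201 bp around the summit was 36.1% in members (quartiles 30.8 and 41.3), 47.8% in candidates at this distance, 33.8% in promoter peaks and 36.8% in distal peaks. In 219 members (69.7%) it was below 40%, against 20.6% of candidates. The share of candidates that were members was 6.43% at 25 to 30% GC (60 members, Wilson 95% interval 5.03 to 8.19), 3.51% at 30 to 35% (80), 1.70% at 35 to 40% (73), 0.785% at 40 to 45% (51) and 0.251% at 45 to 50% (20, interval 0.162 to 0.387). Within introns alone the share was 9.15%, 4.97%, 2.34%, 1.37% and 0.368% in the same bins. The step from one bin to the next was thus present in intronic candidates as well as in all of them.

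Low GC was local to the summit. In 21 bp windows the mean was 33.6% at the summit of members, 44.8% at 140 bp to its left and 43.1% at 140 bp to its right. In candidates outside the list the course was opposite, with 47.8% at the summit and 46.3% and 46.0% at these distances. Promoter peaks and distal peaks had the same dip as members, with means of 31.3% and 35.5% at the summit. At 1000 bp to either side members were at 42.3% and 40.9%.

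**Figure D4:**
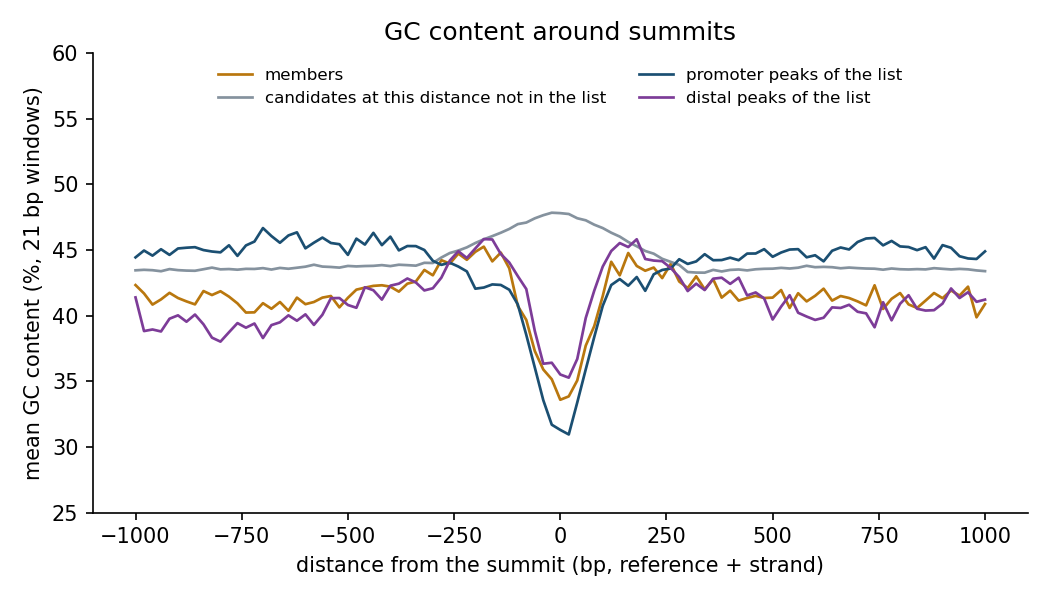
Mean GC content (vertical axis, percent, 21 bp windows) against the distance from the summit (horizontal axis, bp) for members, candidates at the same distance from a TSS outside the list, promoter peaks and distal peaks. At the summit members stand at 33.6% and candidates at 47.8%.

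Known core promoter and factor words were counted on both strands of the 201 bp windows, among them TATCGATA, the DRE word bound by Dref. It was in 0 of 314 members, which allows a share of up to 0.955%, in 0.229% of candidates at this distance and in 4.26% of promoter peaks. GGTCACAC, the core of promoter motif 1, was in 2 members (0.637%, against 0.281% of candidates and 1.71% of promoter peaks), and CATCNCTA, the core of promoter motif 7, in 4 (1.27%, against 1.38% and 5.85%). CGATA, which lies inside the DRE word, was in 20.4% of members and 20.6% of candidates. These words were therefore at about the candidates' level in members, and more frequent in promoter peaks. The E-box CAGCTG was in 4.78% of members (Wilson 95% interval 2.92 to 7.73) and 11.8% of candidates, but in 6.29% of candidates whose GC content lay between the members' quartiles, inside the members' interval. Of the others, GTCACGC, a core word of Pax2/5/8 sites, was in 0.955% (3 members, interval 0.325 to 2.77) against 1.32%. Its share was lower, 0.775%, in candidates of like GC, so the direction depended on the background. Both backgrounds lay inside the members' interval. GAGAGAG, a word of the GAGA factor, was in 3.18% against 2.23%, and in 2.4% of candidates of like GC. For CAGGTAG, the Zelda word, the shares were 1.27% (interval 0.496 to 3.23), 1.48% and 0.875%, again with both backgrounds inside the interval.

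Words rich in A and T were more frequent in members than in all candidates, and near the level of candidates with a like base composition. TATAAA, the TATA box word, was in 33.4% of members and 13.7% of candidates, but in 29.3% of the 8000 candidates outside the list whose GC content lay between the members' quartiles, a restriction chosen after the values were seen. The homeodomain core TAATTA was in 14.97% of members, 8.78% of candidates and 16.5% of those of like GC. For the run AAAAAAAA the shares were 14.01%, 7.13% and 16.4%. GCCAT was in 25.5%, 40.5% and 31.9%, CACACACA in 1.91%, 3.83% and 3.89%, and GCGCGC in 1.91%, 2.34% and 1.14%.

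Words of 7 bases were then ranked by the ratio of their share in members to that in candidates, among those in at least 5% of member windows, with each word and its reverse complement as 1 word. The first 8 were CACTGTA (12.7% of members and 1.84% of candidates), ACTGTAC (8.92% and 1.48%), ACAGTGG (16.6% and 3.11%), TACAGTA (6.05% and 1.17%), CACAGTG (14.01% and 2.82%), ATATTAC (8.60% and 1.91%), ACTGTAT (7.01% and 1.57%) and ACTGTGC (10.5% and 2.48%). All but ATATTAC contain ACAGT on one strand, so they overlap one another and count partly the same places. As the highest of many ratios they are a description of these windows. The first of them, CACTGTA, was in 6.70% of promoter peaks and 10.5% of distal peaks.

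The shared word ACAGTG was chosen after this ranking was seen. It was in 91 members (29.0%, Wilson 95% interval 24.2 to 34.2), 8.51% of candidates at this distance, 8.41% of candidates of like GC and 9.44% of intronic candidates of like GC outside the list. Promoter peaks had it in 19.6% and distal peaks in 22.0% of windows, so it was not limited to members. Among the peaks of each replicate's own list at this distance it was in 25.9% in replicate 1 (49 of 189) and 34.1% in replicate 2 (61 of 179), against 8.55% and 8.57% of the candidates of these replicates. It was in 10 of the 25 strongest members, in 26 of the next 75, in 26 of the next 100 and in 29 of the last 114. Intronic members had it in 32.1% of windows and other members in 21.9%, with overlapping intervals. Upstream and downstream members had it in 27.3% and 30.4%. Members with 2 or more copies numbered 23 (7.32%, against 0.523% of candidates outside the list).

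The word was densest to either side of the summit, and it mostly read in one direction. Within 150 bp of the summit 123 members held 170 copies, of which 10 lay within 20 bp of the summit and 118 (69.4%) between 40 and 120 bp from it, against 53.3% in candidates outside the list. The 36727 candidates outside the list held 646 copies within 20 bp of the summit. To the left of the summit on the reference strand 68 of 84 copies read ACAGTG, and to the right 67 of 86 read CACTGT. Thus 135 of the 170 copies (79.4%, Wilson 95% interval 72.7 to 84.8) read towards the summit. In candidates outside the list it was 50.7% of 4880 copies, and 58.2% of 593 in intronic ones of like GC. Copies in 1 window are not independent, which the interval does not take into account. In 30 members (9.55%) copies on both sides read towards the summit, against 0.193% of candidates outside the list.

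The same direction was seen in the peaks of each replicate's list and outside the members. The replicate lists share regions with each other and with the members, 119 of which overlapped a peak of both. The same sequence was then counted more than once, so these shares are not independent. In the peaks of the replicate 1 list at this distance 80.2% of 101 copies read towards the summit, and in those of the replicate 2 list 85.3% of 109. In intronic members it was 78.9% of 128 copies and in the other members 81.0% of 42. Promoter peaks had 74.3% of 315 copies in this direction (interval 69.2 to 78.8) and distal peaks 76.5% of 136 (interval 68.7 to 82.8), so the intervals of the 3 classes overlap. Between 150 and 300 bp from the summit of members 38 of 59 copies (64.4%) read towards it.

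**Figure D5:**
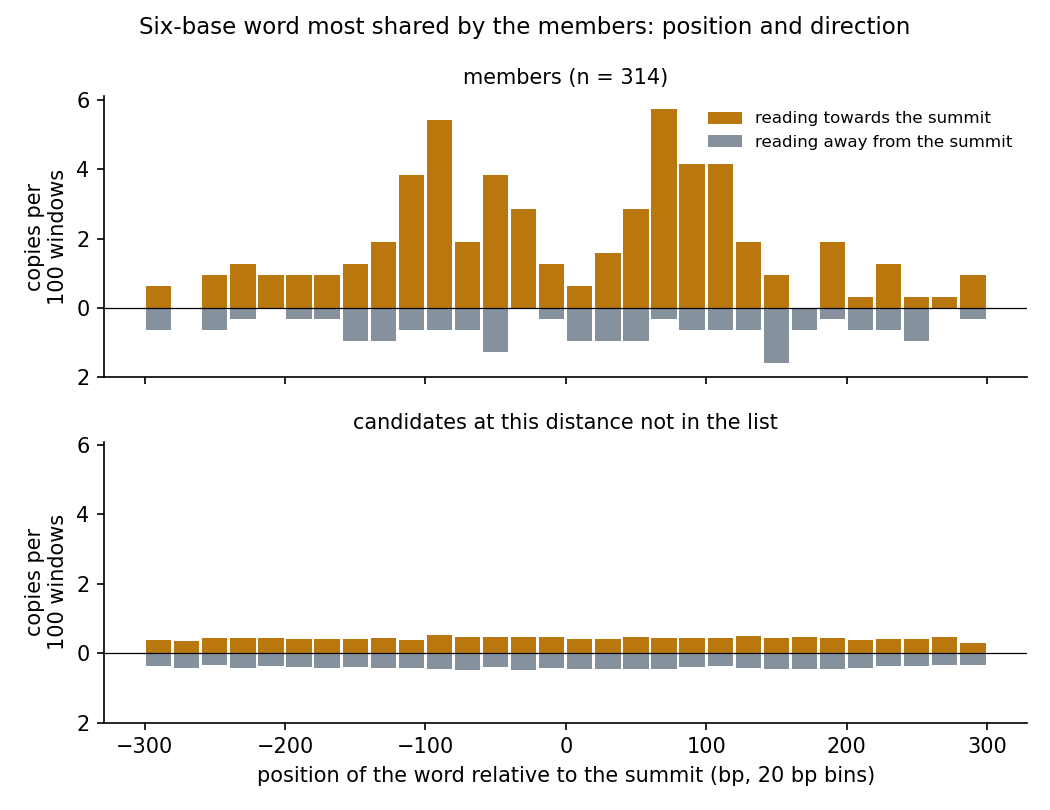
Copies of ACAGTG per 100 windows (vertical axis) by position relative to the summit (horizontal axis, 20 bp bins) for members (upper panel) and candidates at the same distance outside the list (lower panel); bars above the line read towards the summit and bars below it away from it. In members the highest bins are 80 to 100 bp to the left, with 5.41 copies per 100 windows, and 60 to 80 bp to the right, with 5.73; candidates stay flat.

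Named gene lists were compared with the members by their nearest genes, beside 250 of the 10680 protein-coding genes nearest to a candidate in the band (2.34%). HMG-box and histone-associated genes had 4 of 16 nearest to a member: HmgZ, HmgD, bbx (bobby sox) and cic (capicua, a repressor acting downstream of receptor tyrosine kinases). With the list of replicate 1 alone, without replicate 2, the count was 2. The signal was 761 and 62.1 at the 2 HmgZ members, 71.97 at HmgD, 123 at bbx and 92.3 at cic. The lesser HmgZ member and that at HmgD both had higher values in replicate 2, at 37.99 and 48.6, than in replicate 1, at 22.0 and 17.6. Neither was in the conservative list. HmgZ and HmgD overlap, so they are not separate places: both HmgZ members also lay inside HmgD, and the HmgD member lay in an intron of HmgZ. Among Polycomb and Trithorax group and remodelling genes 3 of 35 were nearest to a member, with 612 and 89.1 at Trl, 134 at ph-d, a Polycomb group gene, and 67.3 at lola, which encodes BTB transcription factors. The lola member overlapped no candidate of replicate 2 and was not in the conservative list. For these genes the count was 2 with the conservative list, without replicate 1 and at a −log10 IDR of at least 3. Without replicate 2 it was 4.

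Growth factor and kinase signalling genes had 8 of 55, and this count was 2 without replicate 1 and 4 without replicate 2. The strongest were at shn, which encodes a zinc finger protein of the Dpp pathway, with 132 and 80.4, at kay, the Fos gene, with 88.7, at the insulin receptor gene InR with 81.0, and at Stat92E with 71.6. In replicate 1 the values at kay, InR and Stat92E were 41.7, 49.3 and 28.2, and in replicate 2 they were 47.2, 34.0 and 44.4. Of these 3, kay and InR were in the thresholded list of replicate 1 and Stat92E in that of neither replicate. Neuronal RNA-binding genes had 3 of 20, with 162 at mub, 106 at ps (pasilla, the Nova counterpart) and 96.1 at pum (pumilio, a translational repressor). Muscle genes had 3 of 31, with 142 at zfh1, a zinc finger homeodomain gene, 99.4 at lmd, a regulator of fusion-competent myoblasts, and 96.6 at bin, the FoxF gene of the visceral mesoderm.

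Sense organ and neuroblast regulators, the group closest to the known role of Poxn, had 1 of 34: brat, which encodes a translational repressor that limits neuroblast self-renewal, with a signal of 123 (73.0 in replicate 1 and 48.7 in replicate 2) 702 bp upstream of a TSS. Axon guidance and adhesion genes had 1 of 32, the receptor phosphatase gene Ptp10D with 62.8 (30.2 and 45.3), and this count was 0 without replicate 2 and also 0 at a −log10 IDR of at least 3. Ecdysone and nuclear receptor genes had 1 of 25, chinmo, which encodes a BTB transcription factor, with 87.3 (33.6 and 61.3), and 0 at that stricter IDR. These counts go by the nearest TSS. Inside listed genes lay 2 members each for the ecdysone and axon guidance lists, against 1 nearest, and 11 for signalling, against 9. Muscle genes held fewer, 2 against 3, as did Polycomb and Trithorax genes, 3 against 4. A member with a signal of 91.7, nearest to tRNA:Asn-GTT-1-1, lay in an intron of EcR. No member was nearest to any of the listed 23 Notch pathway, 36 segmentation and homeotic, 21 appendage patterning or 16 insulator genes, nor to any of 42 cytoplasmic and 42 mitochondrial ribosomal protein genes or 191 chemoreceptor and odorant-binding protein genes. With the conservative list the last count was 1. In the same order these lists had 60, 178, 86, 33, 78, 70 and 492 candidates in the band. At the 0.887% of all protein-coding genes few members would fall in the smaller lists, so a count of 0 there says little. The lists are not complete. Outside them, and named after their values were seen, the odorant-binding protein gene lush was nearest to a member with a signal of 38.2 (27.9 and 22.5), and E(spl)malpha-BFM, a gene of the Enhancer of split complex in the Notch pathway, to one with 96.0 (57.1 and 38.3). The lists differ in size and in candidates per gene, and were not tested. Of the 30677 candidates nearest to protein-coding genes 0.887% were members. The share was 7.46% for the HMG-box list, 4.26% for the Polycomb and Trithorax list and 3.46% for the signalling list. For muscle genes it was 2.44% and for neuronal RNA-binding genes 2.13%. Sense organ (0.694% of 144 candidates), ecdysone (0.667% of 150) and axon guidance genes (0.633% of 158) had 1 member each. That is too few to set them apart from the share of all protein-coding genes.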

How the data were processed

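ChIP-seq peak lists of 2 biological replicates of 1 group were analysed on dm6. Per the deposited notes, the lists were made from filtered alignments of one or both replicates and further shared files; no source used here names the aligner or peak caller. The signal of a peak is the authors' enrichment value, of unstated normalisation. The score in the deposited lists was scaled by the authors from the IDR and capped at 1000. The authors give the −log10 of the global IDR, and the lowest value in the thresholded list was 2.00, an IDR of 0.01. The deposited summit offset in bp placed each summit. No depth is given, so precision is stated for counts of regions only.

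TSSs were the 24111 of 18277 gene models of Ensembl release 115 on the arms, without transposable elements. Classes were assigned in the order untranslated region at the start of a transcript, coding exon, untranslated region at its end, noncoding exon, intron, intergenic. Lists were overlapped by at least 1 bp. Sequence came from the RefSeq assembly that matches dm6. Shares carry 95% Wilson intervals (statsmodels 0.14.6) for counting error; a count of 0 was given the limit of 3 counts. Candidates of like GC lay between the members' GC quartiles. With 1 group, and regions that are not replicates, no p-value was computed. Python 3.11.15 with pandas 2.3.3, numpy 2.4.6 and matplotlib 3.10.9 was used. Distance, class, word and overlap steps were tested on simulated data and recovered 400 of 400 sites each.

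The members, 15 gene lists and 14 words were chosen with earlier results of these data known; 29 of the 429 symbols listed by hand were not matched. The text names the nearest genes of the 25 strongest members, up to 4 genes per list by signal, 2 regions on each side of each distance limit, all 14 words and the 8 words of 7 bases with the highest ratio. Sequence was taken only from windows that touch no untranslated region and none from arm 2R. Of the genes this rule selects, 1 is not reported here. The word ACAGTG, its position and direction and the restriction on GC were chosen after the data were seen. Alternatives were TSSs of protein-coding genes alone, the peak midpoint in place of the summit, each replicate's list alone, the conservative list, a −log10 IDR of at least 3, 501 to 1000 and 1001 to 2000 bp alone, candidates of high signal as background, 101 bp windows, peaks merged within 500 bp and an overlap of 50% in both directions.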

Additional observations from a re-analysis of the deposited data

How the results depend on the processing

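Leaving out a replicate gave 179 to 189 members, 0.661% to 0.688% of candidates and a median GC content of 34.3% to 35.3%. Requiring a −log10 IDR of at least 3 left 111 members, 0.2997% of candidates, with a median GC content of 34.8% and a median signal of 136, and 88.3% of them were in both replicate lists. At 501 to 1000 bp there were 162 members, 1.06% of candidates, 44.4% of them downstream of the TSS. At 1001 to 2000 bp there were 152, 0.699% of candidates, with 65.1% downstream and a median GC content of 35.1%. Against candidates of high signal the share was 94.4%, and in 101 bp windows the median GC content was 33.2%. The intron share moved by less than its interval under every alternative run. Of 135 alternatives for words 14 moved the value beyond its interval. Counts of genes in lists carry no interval, and 18 of the 105 alternatives for them were marked as changed. ACAGTG, chosen after the data were seen, was in 36.9% of members at the stricter IDR and in 11.1% of 101 bp windows, which hold fewer bases. No paired analysis was possible because there was 1 group. With no read depth, no control library and 2 replicates, neither the false share of members nor the number of regions missed can be given. Nearest genes are assigned by distance alone.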
